A study of Schizosaccharomyces pombe with 7 samples.

Results

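The hottest windows of the chromosome II arms in fission yeast (Schizosaccharomyces pombe) are the 96 of 1919 stretches of 1 kb in which wild-type cells held the most newly made histone H3. They were chosen by level, as the top 5% of the arm windows with 10 or more probes in the mean log2 ratio of immunoprecipitated (ChIP) to input DNA on 2 of the 3 wild-type arrays, each array being centred on its median. Arm windows lie on both sides of centromere 2, without the centromere and the mating-type region, and every hot window carried 20 probes. The 2 arrays that chose the windows (wild type 1 and 2) are given below as a description only, also where values of other arrays stand beside them. Tests of the hot windows rest on the 5 arrays that took no part in the choice, unless stated: wild type 3, fft3Δ 1 and 2, and the single arrays of clr3Δ and of fft3Δ clr3Δ, here the double mutant.

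The study measured FLAG-tagged H3 by ChIP on 7 two-colour arrays: wild type (3 arrays), cells lacking fft3 (2), cells lacking clr3 (1) and cells lacking both (1). All cultures grew at 30 °C in minimal medium with 8% glucose and received 15 mM hydroxyurea, which stops DNA replication, for 4 h. They were then moved to 4% sucrose for 2 h, hydroxyurea still present, to switch on the tagged H3, and were fixed in 1% formaldehyde. Whether the arrays of 1 genotype stand for separate cultures is not stated in the labels, so a p-value here speaks for the array-to-array spread alone, possibly a technical one.

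Nucleosomes are taken apart and rebuilt throughout the cell cycle, and histone H3 made outside replication enters chromatin where old nucleosomes are lost. This exchange is usually fast at the promoters of active genes and in the nucleosome-poor stretches between genes, and slow in silent chromatin. Fft3 is a Snf2-family ATPase that remodels nucleosomes, and Clr3 removes acetyl groups from histones within SHREC, a silencing complex.

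The promoters of 5 genes in or beside hot windows are printed here because they stand for the kinds of locus the results turn on: hsp16 (small heat shock protein), ubi4 (polyubiquitin) and str1 (siderophore-iron transporter), which were high on all wild-type arrays, and tdh1 (glyceraldehyde-3-phosphate dehydrogenase) and fba1 (aldolase), where the arrays disagreed. Each sequence is the 250 bases before the gene's annotated RefSeq start on chromosome II of ASM294v3, 5′ to 3′ on the gene's strand. Capitals mark matches, on either strand, to any of 6 words searched: TGACGT (core of the site of the stress factor Atf1), ACGCGT (the word of G1/S promoters), the ribosomal protein gene word CAGTCACA, the histone gene word AACCCT, the TATA word TATAAA and a run of 10 A. Overlapping matches merge into 1 run of capitals.
hsp16 (minus strand, chrII:2660993-2661242): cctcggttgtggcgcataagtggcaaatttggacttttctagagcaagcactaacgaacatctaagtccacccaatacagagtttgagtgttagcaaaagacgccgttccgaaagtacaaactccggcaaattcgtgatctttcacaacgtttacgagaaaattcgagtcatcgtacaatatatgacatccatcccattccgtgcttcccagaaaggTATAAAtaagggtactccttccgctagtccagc
ubi4 (minus strand, chrII:1045593-1045842): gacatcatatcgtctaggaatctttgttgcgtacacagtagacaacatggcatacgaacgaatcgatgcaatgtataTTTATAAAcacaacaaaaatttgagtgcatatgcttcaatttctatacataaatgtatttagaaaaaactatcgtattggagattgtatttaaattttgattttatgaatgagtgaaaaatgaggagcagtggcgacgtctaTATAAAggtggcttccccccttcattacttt
str1 (plus strand, chrII:2704407-2704656): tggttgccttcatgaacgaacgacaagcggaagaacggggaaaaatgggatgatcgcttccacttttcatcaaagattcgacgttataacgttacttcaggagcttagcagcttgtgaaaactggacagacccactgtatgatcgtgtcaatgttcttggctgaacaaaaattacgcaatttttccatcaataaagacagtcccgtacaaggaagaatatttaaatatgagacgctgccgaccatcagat
tdh1 (plus strand, chrII:2807345-2807594): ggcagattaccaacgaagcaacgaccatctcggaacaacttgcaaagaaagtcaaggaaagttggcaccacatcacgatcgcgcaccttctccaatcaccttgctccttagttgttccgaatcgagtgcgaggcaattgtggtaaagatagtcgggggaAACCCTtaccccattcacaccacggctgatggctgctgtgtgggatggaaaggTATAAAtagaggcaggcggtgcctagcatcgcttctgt
fba1 (plus strand, chrII:1688071-1688320): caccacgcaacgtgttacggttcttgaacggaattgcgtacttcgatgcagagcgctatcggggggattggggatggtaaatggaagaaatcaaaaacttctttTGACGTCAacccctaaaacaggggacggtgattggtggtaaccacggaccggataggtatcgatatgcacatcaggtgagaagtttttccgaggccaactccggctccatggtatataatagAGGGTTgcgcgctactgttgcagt
In hsp16, ubi4 and tdh1 a TATAAA on the gene's strand lay close to the start, its first base at −33, −31 and −38. The fba1 promoter holds overlapping TGACGT matches on both strands (first bases at −146 and −144), and the str1 promoter none of the 6 words. Among 453 arm promoters clear of other coding genes, 42.2% held TATAAA, 3.75% held TGACGT and 6.62% held AACCCT. Of the 26 such promoters whose gene starts in a hot window, 8 (30.8%) held TATAAA, 4 (15.4%) held TGACGT and 4 (15.4%) held AACCCT. A match describes the letters and says nothing on binding.

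Median input signals lay between 1129 and 1363 and median ChIP signals between 1126 and 1358, at least 99.44% of probes were well above background in each channel, and 0 spots were saturated. Spots left out as nonuniform or as outliers numbered 4 to 323 on 6 arrays and 929 on the double mutant's. Slide 1 held wild type 1 and fft3Δ 1, slide 2 wild type 2 and fft3Δ 2, and slide 3 wild type 3, clr3Δ and the double mutant. Sample titles mark the same sets, with no number for slide 1 and as series 1 and series 2 for the others. Over the 1919 windows, which share probes' sequence and dye effects, wild type 3 correlated with wild type 1 at 0.907 and with wild type 2 at 0.763, and the 2 arrays of the choice correlated with each other at 0.731. The genes fft3 and clr3 were not analysed here.

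The hot windows stood at a mean log2 ratio of 0.86 on wild type 1, 1.04 on wild type 2 and 0.84 on wild type 3, a group mean of 0.91 ± 0.11 (SD, n = 3). Only the value of wild type 3 is free of the choice. There the windows ranged from 0.29 through a median of 0.85 to 1.42, all 96 above the array's median, while the other 1823 arm windows averaged 0.02. Of the 96, 74 were again in the top 5% of arm windows, 89 in the top 10% and 96 in the top 25%, where 5%, 10% and 25% of all arm windows lie by definition. The lowest ranked 436 of 1919. The windows at the edge of the choice show how gradual it was: the last members were windows 1476 (mei4, act1), 1207 (mpr1, SPBC725.03), 2791 (gpx1), 1451 (mis15, SPBC32H8.01C) and 2470 (bzz1, SPBC12C2.04), at 0.74, 0.73, 0.73, 0.72 and 0.72 on the 2 arrays of the choice. The first left out were 1297 (SPBC30B4.09, SPBC3D6.16), 1048 (erg28, dre2), 2977 (exg3), 2556 (gas2, tri1) and 2890 (rsv1), at 0.72, 0.71, 0.71, 0.71 and 0.70. A window is named here by the kb at which it begins in the coordinates of the files, for which the sources used here name no genome build.

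**Figure D1:**
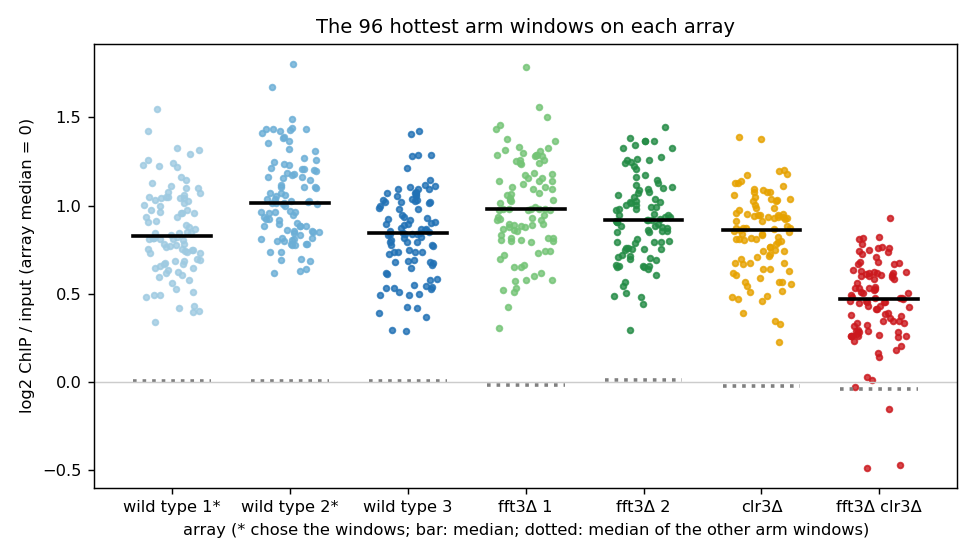
Mean log2 ChIP over input (vertical axis, array median at 0) of each of the 96 hot windows (points) on the 7 arrays, with their median (bar) and the median of the other 1823 arm windows (dotted). The windows lie above 0 on every array but that of fft3Δ clr3Δ, where 92 of 96 do and the median is 0.47 against 0.85 on wild type 3.

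Both channels can move a ratio, and on wild type 3 the hot windows differed from the rest in ChIP. Their mean centred log2 ChIP signal was 0.67 against −0.20 in the other arm windows, and their input −0.17 against −0.23. On wild type 3 the height therefore lay in the immunoprecipitated DNA.

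The 96 windows were clustered: they formed 51 runs, 25 of a single window, 15 of 2 and 11 of 3 or more, and 41 windows lay in the 11 long runs. Left of centromere 2, 16 windows (2.79% of those there) were hot, and right of it 80 (5.94%). ChIP fragments of 500 to 1000 bp span neighbouring windows, so windows of a run are not independent. The longest runs, of 6 windows each, were 2661 to 2666, around hsp16 and with fab1, prp17 and ric8, and 2806 to 2811, from pgm1 (phosphoglucomutase) across tdh1 to tfb5. They averaged 1.11 and 0.96 on wild type 3. Runs of 4 lay at 2517 to 2520 (grp2, hba1 and ish1, the last a nuclear envelope protein) and at 2970 to 2973 (the origin recognition subunit orc6, the prolyl isomerase ess1 and aly2), at 0.89 and 0.97. The 7 runs of 3 held ubi4 (windows 1045 to 1047), tsp0 with php2, a subunit of the CCAAT-binding complex (1225 to 1227), the ubiquitin protease ubp11 (1680 to 1682), SPBC365.16 (2529 to 2531), qcr10 of the respiratory chain (2886 to 2888), rsv1, rbd3 and lcf2 (2891 to 2893), and SPBC2A9.02 (2949 to 2951). Their means on wild type 3 ran from 0.80 to 1.07.

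The hottest window of all, 2808, lay in the gap of 3107 bases between pgm1 and tdh1. It read 1.42, 1.80 and 1.15 on wild type 1, 2 and 3, 1.33 and 1.21 on the fft3Δ arrays, 1.08 on clr3Δ and 0.17 on the double mutant. The double mutant lay far below the other 6 arrays, which all passed 1.0. Its neighbour 2807, in the same gap, read 1.55, 1.67 and 1.42 in wild type, 1.79 and 1.24 in fft3Δ, 1.39 in clr3Δ and 0.93 in the double mutant. It ranked first of all 1919 arm windows on wild type 3 and on the double mutant alike. Window 2810, over tdh1, read 1.08, 1.49 and 1.05 in wild type, 0.98 and 1.17 in fft3Δ, 1.11 in clr3Δ and 0.26 in the double mutant, again with the double mutant apart from the rest.

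The stress gene hsp16 gave the third highest window, 2662, which holds its promoter and most of its body. Its values were 1.29, 1.43 and 1.41 in wild type, 1.11 and 1.45 in fft3Δ, 1.38 in clr3Δ and 0.56 in the double mutant. Wild type and fft3Δ overlapped, clr3Δ lay among them, and the double mutant was below all. The polyubiquitin gene ubi4 (window 1045) read 1.11, 1.43 and 1.09 in wild type, 1.50 and 1.37 in fft3Δ, 1.03 in clr3Δ and 0.61 in the double mutant. Here too wild type and fft3Δ overlapped.

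The iron transporter gene str1 gave 2 of the 12 hottest windows, 1 upstream in the gap of 2905 bases to mrpl39, which is read divergently, and 1 over its 5′ part. Upstream (window 2705) the values were 1.26, 1.37 and 1.29 in wild type, 1.46 and 1.37 in fft3Δ, 1.20 in clr3Δ and 0.67 in the double mutant. Over the gene (2706) they were 1.24, 1.20 and 1.11 in wild type, 1.56 and 1.26 in fft3Δ, 1.09 in clr3Δ and 0.54 in the double mutant. In the gene window both fft3Δ arrays lay above all 3 wild-type arrays, and the double mutant was lowest in both windows.

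The remaining 5 of the 12 hottest were 2897 (SPBP4H10.12), 2893 (rbd3 and lcf2, a long-chain fatty acid ligase), 1226 (tsp0, php2), 1682 (the divergent gap of 4256 bases between ubp11 and pat1, the kinase that holds back meiosis) and 2531 (SPBC365.16). They read 1.00 to 1.28 on wild type 3, 1.03 to 1.20 on clr3Δ and 0.61 to 0.83 on the double mutant. In each of the 12 the double mutant was the lowest of the 5 arrays that did not choose the windows, as in 35.2% of arm windows.

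**Figure D2:**
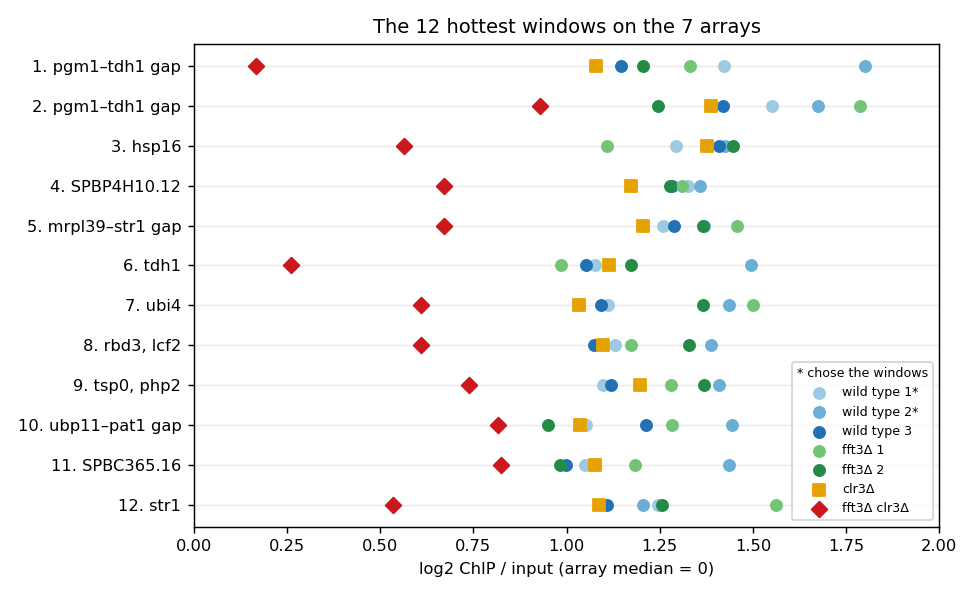
Mean log2 ChIP over input (horizontal axis, array median at 0) of the 12 hottest windows, in order of their level on wild type 1 and 2, on each of the 7 arrays (1 point an array). The double mutant's red diamond is leftmost in every row, from 0.17 to 0.93.

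The genome under the hot windows was described with the reference annotation, after the file coordinates were placed on ASM294v3. Of the 96, 19 (19.8%) overlapped no coding gene, against 4.11% of the other arm windows, and 22 (22.9%) lay wholly inside 1 gene, against 43.8%. Coding genes covered 58.1% of their bases on average, against 80.9%. A coding gene started in 43.8% of hot and 39.1% of other windows, and ended in 31.3% and 35.2%. Of the hot windows 27 (28.1%) touched an intergenic gap of 2000 bases or more, against 5.21%, and 22.1% of all arm windows touching such a gap were hot. The longest gap touched lay between divergent genes in 36 (37.5%), against 21.1%.

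**Figure D3:**
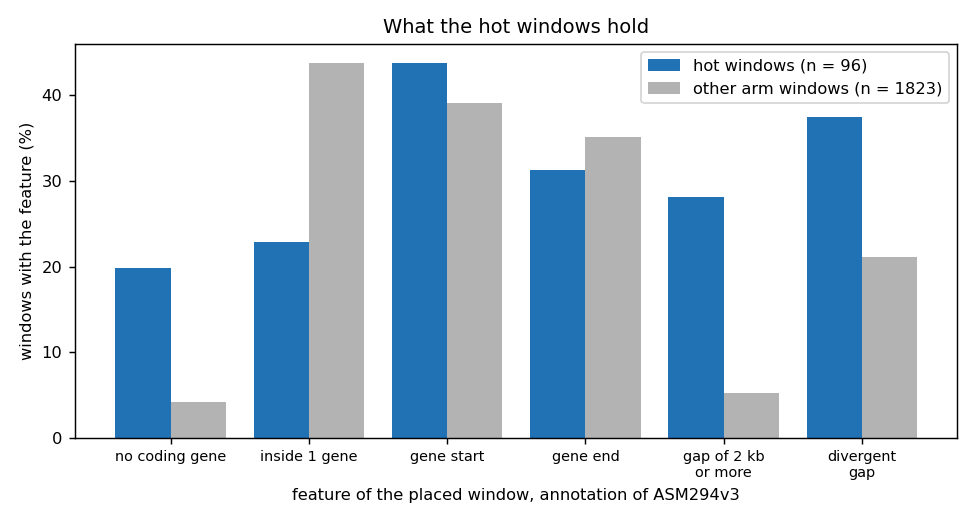
Share of windows (vertical axis, percent) that hold each annotated feature, for the 96 hot windows (blue) and the 1823 other arm windows (grey). Hot windows more often held no coding gene (19.8% against 4.11%) and less often lay inside 1 gene (22.9% against 43.8%). The difference was not tested, since neighbouring windows are not independent.

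Base composition, RNA genes and short words were also counted. The GC content of the hot windows averaged 37.8%, against 36.2%. Annotated long noncoding RNAs overlapped 85.4% and 77.2%. No hot window held a tRNA gene, an rRNA gene or a long terminal repeat (0 of 96 in each case), and 15, 7 and 26 of the other 1823 arm windows did. Words in the window's sequence, on either strand, were TGACGT in 28 windows (29.2%, against 15.5%), TATAAA in 77 (80.2%, against 73.8%), AACCCT in 31 (32.3%, against 30.1%), a run of 10 A in 19 (19.8%, against 12.8%), ACGCGT in 3 (3.13%, against 7.24%) and CAGTCACA in 1 (1.04%, against 1.92%).

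Around gene starts the high level was broad. On wild type 3 the 43 coding gene starts inside hot windows averaged 0.92 at 350 bases upstream and 0.90 at 150 bases downstream, and 0.58 and 0.47 at 1450 bases on either side. The 793 starts elsewhere on the arm stood at 0.12 and 0.05 at 350 bases upstream and 150 bases downstream. The double mutant kept the shape at a lower level, with 0.44 and 0.48 near the start and 0.24 and 0.18 at the ends. At each position it lay below wild type 3, clr3Δ and both fft3Δ arrays.

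**Figure D4:**
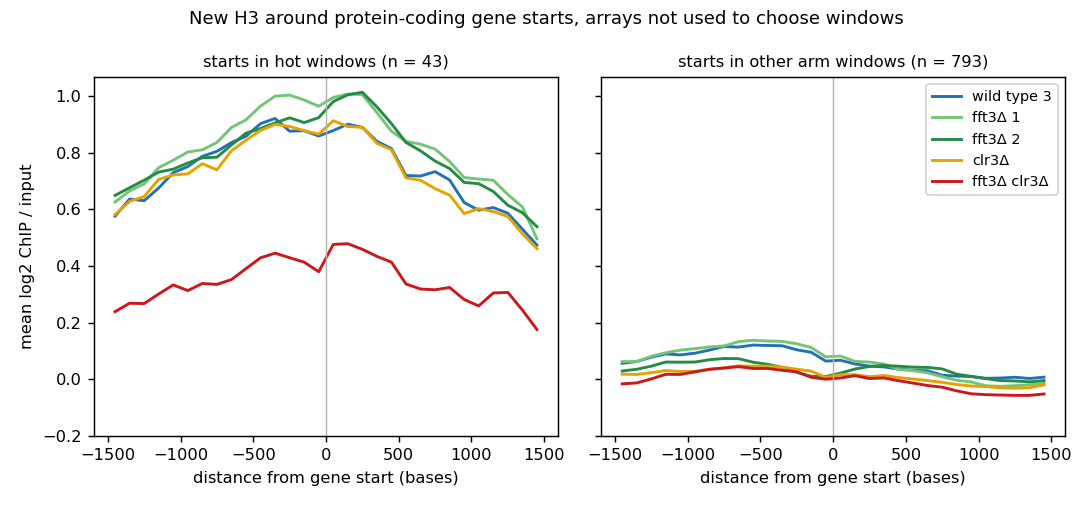
Mean log2 ChIP over input (vertical axis) by distance from the start of coding genes (horizontal axis, bases, bins of 100), for 43 starts in hot windows (left) and 793 in other arm windows (right), on the 5 arrays that did not choose the windows (1 line an array). In the left panel the double mutant runs from 0.18 to 0.48 and the other arrays from 0.46 to 1.01.

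Of the gene groups listed for description, the glycolysis and glucose group had all 4 of its arm genes touched by a hot window. They were tdh1, fba1, the enolase gene eno101 and scr1, a zinc-finger repressor in glucose repression. Of the 839 coding genes on the arm 74 (8.82%) touched one. Histone genes did so in 2 of 3 cases (hht2 for H3 and hhf2 for H4, not the H2A variant pht1), and stress genes in 2 of 5 (hsp16 and the glutathione peroxidase gene gpx1, not atf1, atf21 or mas5). One of 2 iron genes (str1, not php4), 1 of 4 meiotic genes (mei4) and act1 (actin), in the same window as mei4, were also touched. None of 23 ribosomal protein genes was, nor either G1/S gene (cdc18, mcm2), the permease gene fnx1 or any of 14 tRNA and 7 rRNA genes. Of 15 snoRNA genes 1 was (sno20), and the U1 gene snu1 was. The lists were drawn up with earlier results of these data known, and the counts are descriptions.

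At 3 of the 4 glycolysis and glucose genes the wild-type arrays disagreed in 1 way. Over the 2 hot windows of tdh1 within the gene the mean was 0.75 on wild type 1, 1.46 on wild type 2 and 0.79 on wild type 3. The hot window of fba1 read 0.42, 1.17 and 0.29, and that of scr1 0.40, 1.22 and 0.39, in the same order. At these 3 genes wild type 2 stood alone, with wild type 3 beside wild type 1. The 2 hot windows of eno101 averaged 0.83, 1.10 and 0.50, so that there wild type 3 was the lowest, and at 1 of them (2204) wild type 1, at 0.98, was above wild type 2, at 0.88. Histone and stress genes did not split this way: hht2 read 1.01, 0.90 and 0.85, and the 2 windows of hsp16 averaged 1.12, 1.02 and 1.17.

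In all, 14 hot windows were higher on wild type 2 than on wild type 1 by more than 0.5, and 0 were higher on wild type 1 by as much. Besides windows at eno101 (2203), tdh1 (2809), fba1 (1690) and scr1 (1756) they held pof9, fmo1, SPBC16E9.20, rga7, gcv3 and, with 2 windows, the mating adhesion gene map4. The others lay in the gaps cup1 to eno101 (2201), rtn1 to but2 and ubp11 to pat1. These genes were chosen for that difference after their values were seen. The arm's spread over windows was 0.32 (SD) on wild type 1 and 0.41 on wild type 2. In units of that spread all hot windows together averaged 2.45 and 2.37. The part of the wider spread in the count was not tested. On wild type 3 the 14 averaged 0.55, close to the 0.52 of wild type 1 and far from the 1.22 of wild type 2; 13 of them were nearer to wild type 1, and 3 were in the top 5%. Their mean ChIP signal was 1.40, 1.82 and 1.02 on wild type 1, 2 and 3, and their input 0.86, 0.59 and 0.47. Both channels were lowest on wild type 3. The pick for a gap between wild type 1 and 2 partly fixes how those arrays differ, so nothing is read from that difference.

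In the single clr3 deletion the hot windows averaged the same log2 ratio as in wild type of that slide. Their mean was 0.84 on clr3Δ and 0.84 on wild type 3 of the same slide, a mean difference of −0.0017, against −0.028 in the other arm windows. In 52 of 96 clr3Δ was the lower, as in 57.3% of arm windows. On clr3Δ 71 of the windows were in the top 5%, 90 in the top 10% and 95 in the top 25%. The 2200 windows that limma tested include those off the arm, which itself holds 1919. Shares of all windows are therefore not shares of the arm. With limma over all 2200 windows of the array, 0 of 96 differed at an adjusted p under 0.05, with a background of 0% in either direction. At an unadjusted p under 0.05 it was also 0, where 0.136% of all windows were lower and 3.86% higher. The smallest adjusted p among them was 0.998. The widest differences were −0.34 ± 0.19 (SE) at 2664 (ric8), −0.32 ± 0.18 at 1557 (the gap isp4 to rpl26) and −0.26 ± 0.18 at 2950 (SPBC2A9.02). On the other side they were 0.37 ± 0.24 at scr1 (1756), 0.36 ± 0.31 at 1973 (knh4) and 0.31 ± 0.19 at 3016 (gsf1), and none passed.

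The double mutant had the lowest hot windows. Their mean log2 ratio there was 0.45, with a range of −0.48 to 0.93 and a median of 0.47, against 0.84 on both other arrays of the slide. The mean difference was −0.39 from wild type 3 and −0.39 from clr3Δ, and −0.06 and −0.03 in the other arm windows. The double mutant was below wild type 3 in 87 of 96, where it was below in 64.2% of arm windows, and below clr3Δ in 86, against 56.9%. It was the lowest of the 3 arrays of slide 3 in 84, against 48.2% of arm windows, and the lowest of the 5 arrays not used in the choice in 82, against 35.2%. Hot windows were still mostly high in rank: 51 were in the top 5%, 68 in the top 10% and 89 in the top 25% of the double mutant's arm, but the lowest ranked 1858.

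The difference from wild type 3 grew with the level and was not confined to the hottest windows. The next 5% of arm windows by the same ranking differed by −0.21 on average, and the coldest 5% by 0.03. Over the 1919 arm windows the least-squares slope of the double mutant on wild type 3 was 0.63, and that of clr3Δ 0.93. The correlations were 0.783 and 0.893, and a lower correlation by itself lowers such a slope. The arm's spread over windows was 0.27 (SD) on the double mutant, 0.34 on wild type 3 and 0.35 on clr3Δ. In units of that spread the hot windows stood at 1.70, 2.30 and 2.29. With all arrays scaled to equal spread, and the top 5% chosen anew, the mean differences were −0.29 from wild type 3 and −0.26 from clr3Δ. Windows with 50% or more of their bases in coding genes (62) differed by −0.36, and those with less (34) by −0.44.

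**Figure D5:**
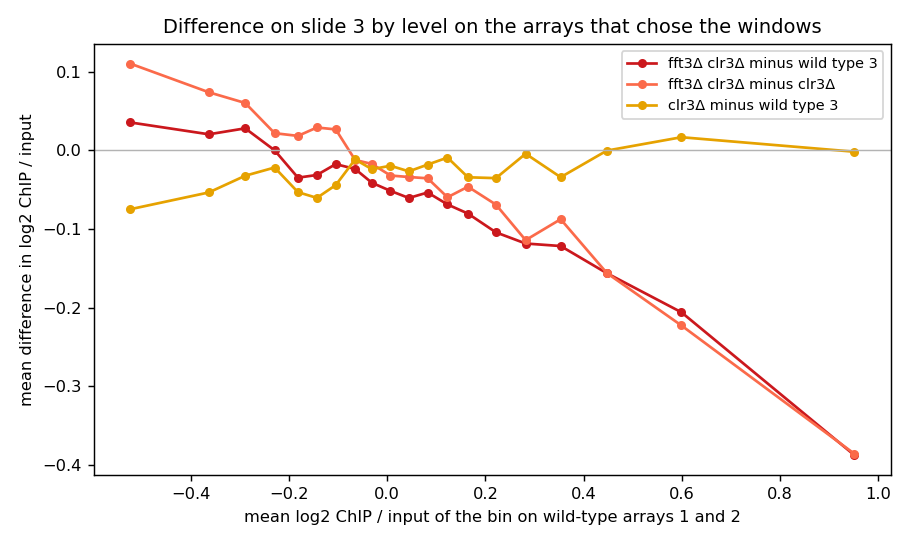
Mean difference in log2 ChIP over input between arrays of slide 3 (vertical axis) for 20 bins of the 1919 arm windows, placed by their mean level on wild type 1 and 2 (horizontal axis); the rightmost points are the 96 hot windows. Both double mutant lines end at −0.39, while clr3Δ minus wild type 3 ends at −0.0017.

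More of this difference lay in the input than in the ChIP channel when the double mutant was set against wild type 3. The centred log2 ChIP signal of the hot windows was lower by 0.10 on average (mean difference −0.10) and the input was higher by 0.25, against 0.0033 and 0.02 in the other arm windows. ChIP was below wild type 3 in 61 of 96 (54.6% of arm windows), and input above it in 75 (51.1%). Against clr3Δ the mean differences were −0.17 in ChIP and 0.16 in input, with ChIP lower in 71 (49.9%) and input higher in 66 (48.3%). A higher input was not seen on the double mutant alone. In clr3Δ the input was above wild type 3 in 80 of 96 (53.3% of arm windows, mean difference 0.08), with a ChIP signal higher by 0.07. On slides 1 and 2 the wild-type arrays chose the windows for a high ratio, so nothing is read from the inputs there. The input of fft3Δ 2 was above wild type 2 in 79 (51.8%, mean difference 0.21). That of fft3Δ 1 was above wild type 1 in 20 (46.9%, mean difference −0.06). At window 2808 the ChIP signal was 0.90 on wild type 3, 0.93 on clr3Δ and 0.82 on the double mutant, while the input was −0.25, −0.14 and 0.60. At hsp16 (2662) ChIP was 0.42, 0.54 and −0.02 and input −0.99, −0.83 and −0.63. The 2 loci thus split differently, the first almost wholly in input and hsp16 in both channels. At some of the 12 hottest windows ChIP was higher on the double mutant than on wild type 3. These were 2807 (1.567 against 1.255), 1682 (2.01 against 1.40), 2531 (1.85 against 1.20) and 2810 (0.56 against 0.53). Input was higher on the double mutant at each of them, so the lower ratio there lay in the input alone. At the rest of the 12, ChIP was lower. The part of the input and of the 929 spots left out on this array in the result was not tested.

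Window by window, whether the difference passed depended on how a window was summarised. With limma on the 5 arrays and the mean over probes, 0 of 96 hot windows were lower in the double mutant than in wild type 3 at an adjusted p under 0.05, where 0.0909% of all 2200 windows were, and 0 were higher, where 1.68% were. The smallest adjusted p among the 96 was 0.129, at window 2808. On the same arrays 9 were lower with the median over probes, where 0.545% of all windows were, and 3 with windows shifted by 500 bases, where 0.363% were. Each of these alternatives chose its own top 5%, so its hot windows need not be the 96 described. The mean difference hardly moved, at −0.388 with the mean, −0.395 with the median and −0.392 with shifted windows. The prior degrees of freedom, the weight limma gives to the spread shared by all windows, were 4.12, 35.4 and 13.8. Their part in the counts was not tested. All 39 calls over the 2200 windows were absent with normexp background correction (0). With probes found once there were 0 calls too, but only 1934 windows were tested, so some of the 39 may not have been among them. At an unadjusted p under 0.05, 29 were lower, where 2.91% of all windows were, and 0 higher, where 5.73% were. The largest differences were −1.02 ± 0.27 (SE) at tdh1 (2809), −0.98 ± 0.19 at the pgm1 to tdh1 gap (2808) and −0.95 ± 0.21 at SPBC16E9.20 (1953). The 3 most positive were 0.23 ± 0.18 at the retrotransposon Tf2-9 (1817), 0.18 ± 0.21 at map4 (2438) and 0.13 ± 0.21 at str1 (2708). The only spread in this fit is that of the 2 fft3Δ arrays, which lie on different slides, and the single arrays of the other genotypes are assumed to vary like them. With slide as a block on all 7 arrays the difference is again that from wild type 3, with the arrays of the choice entering its spread, and 9 hot windows were lower, where 0.545% of all windows were. With all 7 arrays and no block 11 were lower, where 0.773% of all windows were, but the choice for height on wild type 1 and 2 builds a lower double mutant into that count, and nothing is read from it.

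The double mutant against clr3Δ asks what loss of fft3 does where clr3 is already gone. With limma 0 of 96 were called in either direction at an adjusted p under 0.05, with a background of 0%. The smallest adjusted p was 0.783. At an unadjusted p under 0.05, 28 were lower, where 2.64% of all windows were, and 0 were higher, where 3.09% were. The lowest were tdh1 (2809) at −1.05 ± 0.27 (SE), the qcr10 to rsv1 gap (2888) at −0.97 ± 0.19 and SPBC16E9.20 (1953) at −0.92 ± 0.21. The highest were map4, at 0.37 ± 0.21 (2438) and 0.19 ± 0.18 (2439), and Tf2-9 (1817) at 0.26 ± 0.18. This comparison and that with wild type 3 share the double mutant's array.

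In cells lacking fft3 alone the hot windows were high as in wild type. Their mean was 0.99 on fft3Δ 1 and 0.93 on fft3Δ 2, a group mean of 0.96 ± 0.05 (SD, n = 2), and both lay above the 0.84 of wild type 3. The wild-type arrays of slides 1 and 2 chose the windows for height, so the differences within those slides, 0.13 on slide 1 and −0.12 on slide 2, are given as values from which nothing is read. Against wild type 3, on another slide, the mean of both fft3Δ arrays differed by 0.12, against −0.02 in the other arm windows. The direction turned with arrays scaled to equal spread (−0.03) and with quantile normalization (−0.01), each with its own top 5%. Genotype and slide cannot be told apart in that comparison. On the fft3Δ arrays 74 and 70 of the windows were in the top 5% and 89 and 90 in the top 10%.

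With limma 0 of 96 differed between fft3Δ and wild type 3 at an adjusted p under 0.05, with a background of 0%, and the smallest adjusted p was 0.996. At an unadjusted p under 0.05, 5 were higher, where 2.09% of all windows were, and 0 lower, where 0.0909% were. The highest differences were 0.56 ± 0.16 (SE) at SPBC725.03 (1208), 0.51 ± 0.16 at the rtn1 to but2 gap (1268) and 0.47 ± 0.16 at grp2 and ish1 (2518), with unadjusted p of 0.0158, 0.0217 and 0.0319. At SPBC725.03 fft3Δ read 1.43 and 1.35, against 0.96, 1.01 and 0.83 in wild type, 0.87 in clr3Δ and 0.41 in the double mutant, so that both fft3Δ arrays lay above every other. The lowest differences were −0.29 ± 0.18 at SPBC16E9.20 (1953), −0.29 ± 0.16 at ric8 (2664) and −0.26 ± 0.16 at ric8 (2665).

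Whether loss of fft3 acted differently with and without clr3 was tested as an interaction in the same fit. The double mutant minus clr3Δ, less fft3Δ minus wild type 3, averaged −0.51 over the hot windows and −0.01 over the other arm windows. Its part fft3Δ minus wild type 3 crosses slides. Alternatives chosen after seeing the data each took their own top 5%. The average was −0.23 with arrays scaled to equal spread and −0.34 with quantile normalization. It passed at an adjusted p under 0.05 in 0 of 2200 windows, and at an unadjusted p under 0.05 in 101 (4.59%), of which 31 were hot windows. The difference between both effects of fft3 was therefore not past the threshold in any window.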

How the data were processed

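Array values were deposited for 7 samples. Spot intensities were deposited as written by Agilent Feature Extraction, whose version was 10.7.3.1 on slide 1 and 12.0.3.1 on the other slides, per the file headers. Its processed intensities are background-subtracted and dye-normalized, per the file headers. The deposited series table holds log2 values that equal the log2 ratio of red (ChIP) to green (input) processed intensity to within 4.9e-08. The deposited log10 ratio column followed them, with a largest departure of 1.18 on the log2 scale, and was used only for that check. Other deposited columns, flags of 0 or 1, marked nonuniform, outlier, saturated and dim spots, per the file headers. ChIP DNA was Cy5 and whole-cell extract Cy3 on every array with no dye swap, after amplification by PCR with random primers (per the labels' protocols), so a probe's dye bias enters every level but is shared by the arrays compared.

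Each array's log2 ratios were centred on the median without flagged spots and averaged in 1-kb windows with 10 or more probes. All 2200 windows were fitted with limma 3.58.1 (R 4.3.3; lmFit, eBayes) on the 5 arrays not used to choose the hot windows, with Benjamini-Hochberg adjustment over all windows and a threshold of 0.05. File coordinates were placed on ASM294v3 by the offset at which input followed GC content best: 900 bases left of centromere 2 (correlation 0.683, against 0.329 at best elsewhere) and 1800 right of it (0.655 against 0.306). Of 38384 arm probes, 0.95% occur more than once. Annotation and promoter sequences are those of RefSeq, and all 5 promoters sought by symbol matched.

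Windows named are the 12 hottest, 5 on either side of the threshold, the 3 extremes of each contrast, runs of 3 or more, and those touching listed genes. Members and lists were chosen with earlier results of these data known. Alternatives were background correction, scaling, window placing and size of the choice, probes, block, and leaving out arrays. Those that changed the window values or the windows themselves chose the hot windows anew by the same rule. The number of arrays limits the precision. Slide served as the block. The arrays of a slide carry the same series mark in their titles, and the labels do not say what that mark stands for.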

Additional observations from a re-analysis of the deposited data

How the results depend on the processing

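No hot window was called for clr3Δ or fft3Δ against wild type under any of the 17 alternatives run for each. Wild type was wild type 3 alone on the 5 arrays. The alternatives built on the 7 arrays brought in arrays that chose the windows for height. Without a block such arrays entered the wild-type mean, and with the block fft3Δ was set against them alone. Nothing is read from those counts. For the double mutant against wild type the count called, 0 on the 5 arrays, was 11 with all 7 arrays (0.773% of all windows; the arrays that chose the windows for height enter the wild-type mean there), 9 with slide as a replicate block, 1 to 11 when an array was left out of the 7 (4 without either fft3Δ array), 1 with quantile normalization, 9 with the median over probes and 3 with windows shifted by 500 bases. Against clr3Δ it was 5 with the median over probes, and 0 under the other 16. Over all 2200 windows the calls, 39 on the 5 arrays, were 0 with normexp, 90 with all 7 and 109 with the median over probes. They were 96 over the 2202 shifted windows and 0 over the 1934 windows tested with probes found once. The mean difference of the hot windows in the double mutant (−0.388 from wild type) was −0.504 with normexp background correction and −0.501 to −0.398 when an array was left out. From clr3Δ (−0.386) it was −0.555 with normexp and −0.259 with equal spread. For clr3Δ against wild type (−0.00169) it ranged from −0.115 to −0.0121 when an array was left out of the 7. For fft3Δ (0.123) it was 0.00967 with the replicate block, −0.029 with equal spread, −0.0129 with quantile normalization and 0.00967 to 0.112 when an array was left out. Whenever an array was left out of the 7, the wild-type mean still held at least an array that chose the windows for height. That builds a lower mutant into those differences, and into that of fft3Δ with the block, so nothing is read from them. The cause of the other shifts was not tested. Slide was the block; arrays of a slide share a series mark in their titles.

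The share of hot windows in the top 5% on wild type 3 (77.1%) was 61.5% when wild type 2 alone chose. It was 97.4% for a choice of the top 2% (38 windows) and 47.9% for the top 10% (192). The top 5% on wild type 3 stayed at 96 windows, so the 192 could not all lie in it. These shares therefore cannot be compared across sizes of the choice. Of those 96 windows, 92 were among the 192. The share with no coding gene (19.8%) was 31.6% for the top 2%, the share inside 1 gene 10.5% and the share with a run of 10 A 31.6%. The ChIP level on wild type 3 (0.674) was 0.948 with normexp. With 1 array each for clr3Δ and the double mutant, their own spread was not measured.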
